A study of Mus musculus with 9 samples.

Results

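The glutathione peroxidases, glutathione transferases and glutathione reductase described here are 10 mouse genes, Gpx1, Gpx3, Gpx4, Gpx7, Gpx8, Mgst1, Mgst3, Gstp1, Gstm1 and Gsr, taken by symbol from a gene table of 27095 loci. RNA-seq was carried out on 9 wild type fetuses collected on gestational day 17 (GD17), of strain C57BL/6 in the labels and C57BL/6J in the methods. The 3 control fetuses came from dams injected intraperitoneally with lactated Ringer's solution on GD7. The 3 EtOH-exposed unaffected and the 3 EtOH-exposed affected fetuses had mothers that received EtOH at 2.9 g/kg by the same route on GD7, and affected fetuses are the exposed ones scored as having ocular and cortical patterning defects. The tissue is called fetal brain in the labels but cortex in the methods, and neither source gives the sex or litter of each sequenced fetus. Since affected and unaffected fetuses received the same dose and were separated by how they looked, the comparison between them follows outcome and not exposure.

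The table gives each locus 1 FPKM per group, a fragment count scaled to exon length and library depth. Values of single fetuses are not in it, so the spread between animals is unknown, no value below has an error, and no difference was tested. The depth of each library is likewise unknown. Differences are given as log2 ratios of group FPKM after adding 0.1 to each, and a locus is counted as lower or higher when its log2 ratio reached 0.32 in that direction, called the fold limit below. The yardstick is the same count over 15535 loci with a mean FPKM of at least 1, and all 10 genes are among them.

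Glutathione is a small thiol that cells keep at high concentration. Glutathione peroxidases use it to reduce hydrogen peroxide and lipid peroxides, glutathione transferases couple it to reactive compounds, and glutathione reductase returns the oxidised form to the reduced form with NADPH. In the brain the pathway is known for limiting damage to membranes rich in unsaturated lipids, and Gpx4 is the enzyme that holds off ferroptosis, a form of cell death driven by lipid peroxides.

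The 5 peroxidases fall into 2 chemical classes that can be read from their coding sequence. Gpx1, Gpx3 and Gpx4 carry selenocysteine in the active site, encoded by a TGA that elsewhere ends translation, while Gpx7 and Gpx8 carry cysteine there. The 27-base windows below have that codon in capitals at their centre, read 5′ to 3′ on the coding strand, and are shown because this class is the feature the peroxidases are grouped by. They were read from the GENCODE M21 transcripts, on mouse build mm10.
Gpx1, codon 47: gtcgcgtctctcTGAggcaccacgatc
Gpx3, codon 73: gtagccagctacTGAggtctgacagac
Gpx4, codon 73: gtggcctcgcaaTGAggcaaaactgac
Gpx7, codon 56: gtagctagcgaaTGTggcttcacagac
Gpx8, codon 79: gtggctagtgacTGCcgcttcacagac
All 5 codons lie in coding exons, at chr9:108339451-108339453 (Gpx1), chr11:54907256-54907258 (Gpx3), chr10:80054737-80054739 (Gpx4), chr4:108403430-108403432 on the minus strand (Gpx7) and chr13:113045661-113045663 on the minus strand (Gpx8). The annotation marks the TGA of the first 3 genes as selenocysteine. Over the 27 bases, the window of Gpx1 shares 13 bases with that of Gpx3, 17 with Gpx4, 13 with Gpx7 and 14 with Gpx8.

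In the affected group, 7 of the 10 genes were lower than in controls past the fold limit and 0 were higher, where 11.3% of all loci were lower and 12.1% higher. The 7 all have transcripts under 1500 nt, a class in which 29.7% of loci were lower, and with the trend on transcript length subtracted 1 gene was lower and 1 higher. The 7 were Gpx1, Gpx4, Gpx7, Gpx8, Mgst1, Mgst3 and Gstp1, with log2 ratios between -0.58 and -0.38. Gpx3 lay short of that limit, and Gstm1 and Gsr had higher values in the affected group. The median log2 ratio was -0.41 over the 10 genes, or -0.14 less the length trend, and 0.02 over all loci. Summed over the 10 genes, FPKM was 713 in controls, 806 in unaffected and 540 in affected fetuses.

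**Figure D1:**
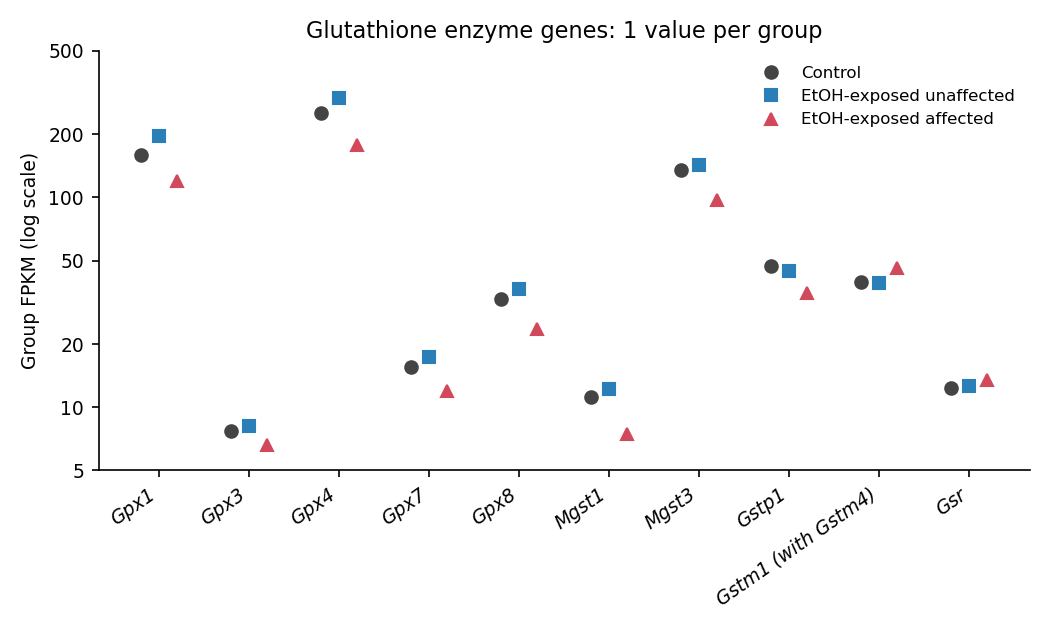
Group FPKM of the 10 genes on a log scale, 1 point per group of 3 fetuses and no error bar because the table holds no values of single animals. The affected group is the lowest of the 3 for 8 genes, from Gpx4 (178) down to Gpx3 (6.60), and the highest for Gstm1 and Gsr.

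Gpx4, the phospholipid peroxidase, had the highest level of the 10 genes in every group. Its FPKM was 253 in controls, 297 in unaffected and 178 in affected fetuses. The affected group was thus at 0.705 of the control level, a log2 ratio of -0.51, and the unaffected group at 1.17 times the control level. Gpx4 lies at chr10:80047166-80056439 on the plus strand, in a crowded stretch where the table gives 47 loci the same wide coordinates, although each has its own FPKM. A pseudogene, Gpx4-ps2, is annotated elsewhere, and reads shared with it could not be separated here.

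Gpx1, the cytosolic peroxidase that removes hydrogen peroxide, ranked second. Its FPKM was 159 in controls, 196 in unaffected and 120 in affected fetuses. The log2 ratio to controls was 0.31 in the unaffected group, just under the fold limit and the highest of the 10, and -0.40 in the affected group. Gpx1 is a gene of 2 exons in its longest annotated coding form, at chr9:108338903-108340343 on the plus strand.

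Gpx3, which encodes the secreted plasma peroxidase, was the least abundant of the 5 peroxidases. It stood at 7.73 FPKM in controls, 8.11 in unaffected and 6.60 in affected fetuses. The affected group was the lowest again, but its log2 ratio of -0.23 did not reach the fold limit. The gene is at chr11:54902453-54910377 on the plus strand.

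The cysteine peroxidases Gpx7 and Gpx8 act in the endoplasmic reticulum, where they pass oxidising equivalents to protein disulfide isomerase during protein folding. Gpx7 had an FPKM of 15.5 in controls, 17.3 in unaffected and 11.9 in affected fetuses, and Gpx8 had 32.9, 36.7 and 23.5. Their log2 ratios of affected to control, -0.38 and -0.48, lay in the range of the selenocysteine genes, -0.51 to -0.23. Both classes therefore had the same order of groups, unaffected above control above affected. Summed FPKM in the affected group was 0.728 of control for the 3 selenocysteine genes and 0.732 for the 2 cysteine genes. Gpx7 lies at chr4:108400390-108406961 and Gpx8 at chr13:113042753-113046410, both on the minus strand. Gpx8 overlaps Cdc20b on the plus strand, and the library kit does not mark strand, so its value is uncertain to that extent.

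Mgst1 and Mgst3 encode microsomal transferases, membrane enzymes that also reduce lipid hydroperoxides. Mgst1 had the lowest ratio of affected to control among the 10 genes, with an FPKM of 11.2 in controls, 12.1 in unaffected and 7.46 in affected fetuses, a log2 ratio of -0.58. Mgst3 was far more abundant on the FPKM scale, at 135 in controls, with 143 in the unaffected and 97.6 in the affected group. Both microsomal genes had the order seen for the peroxidases. Mgst1 lies at chr6:138140316-138156755 on the plus strand and Mgst3 at chr1:167371966-167393841 on the minus strand.

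Gstp1, the pi class cytosolic transferase, was the only one of the 7 lower genes whose unaffected value was also under control. Its FPKM was 47.2 in controls, 44.8 in unaffected and 35.1 in affected fetuses. Its neighbour Gstp2, a close copy, was listed at no more than 0.171 FPKM in any group. Gstp1 lies at chr19:4035407-4037985 on the minus strand.

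Gstm1, a mu class cytosolic transferase, is joined in the table with the adjacent Gstm4 as a single locus, so its value belongs to both genes. FPKM was 39.7 in controls, 39.1 in unaffected and 45.9 in affected fetuses, the highest ratio of affected to control among the 10 at a log2 of 0.21. Gsr, which encodes glutathione reductase, was at 12.3, 12.7 and 13.5 FPKM in the same order of groups, a log2 ratio of 0.13 in the affected group. Neither passed the fold limit in any comparison as deposited, but the Gstm1 locus did in the affected group once the length trend was subtracted. Gstm1 lies at chr3:108012255-108017973 on the minus strand and Gsr at chr8:33652523-33698163 on the plus strand, where a small nucleolar RNA gene, Gm24727, lies inside it.

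The unaffected group, exposed to the same dose, was compared with controls. None of the 10 genes reached the fold limit, 0 lower and 0 higher, where 6.77% of all loci were lower and 5.45% higher. The median log2 ratio was 0.09 over the 10 genes and 0.01 over all loci, and 8 of the 10 had ratios above 0, as did 8021 of the 15535 loci. Loci with short transcripts had a median of 0.11, and less the length trend the median of the 10 genes was 0.01 with 5 of the 10 below 0. The values ran from -0.08 for Gstp1 to 0.31 for Gpx1.

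Set directly against the unaffected group, the affected group had 7 lower and 0 higher genes, where 18.1% of all loci were lower and 20.3% higher. These were the same 7 genes as against controls. The median log2 ratio was -0.54, and the lowest values were those of Gpx4 (-0.74), Gpx1 (-0.71) and Mgst1 (-0.70). This comparison shares its affected group with the comparison to controls, so the shared genes are not a second observation. Gstp1, at -0.35, was just past the fold limit and Gpx3, at -0.29, just short of it. Of loci with transcripts under 1500 nt, the class that holds all 7 genes, 50.9% were lower in this comparison, with a median of -0.33.

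**Figure D2:**
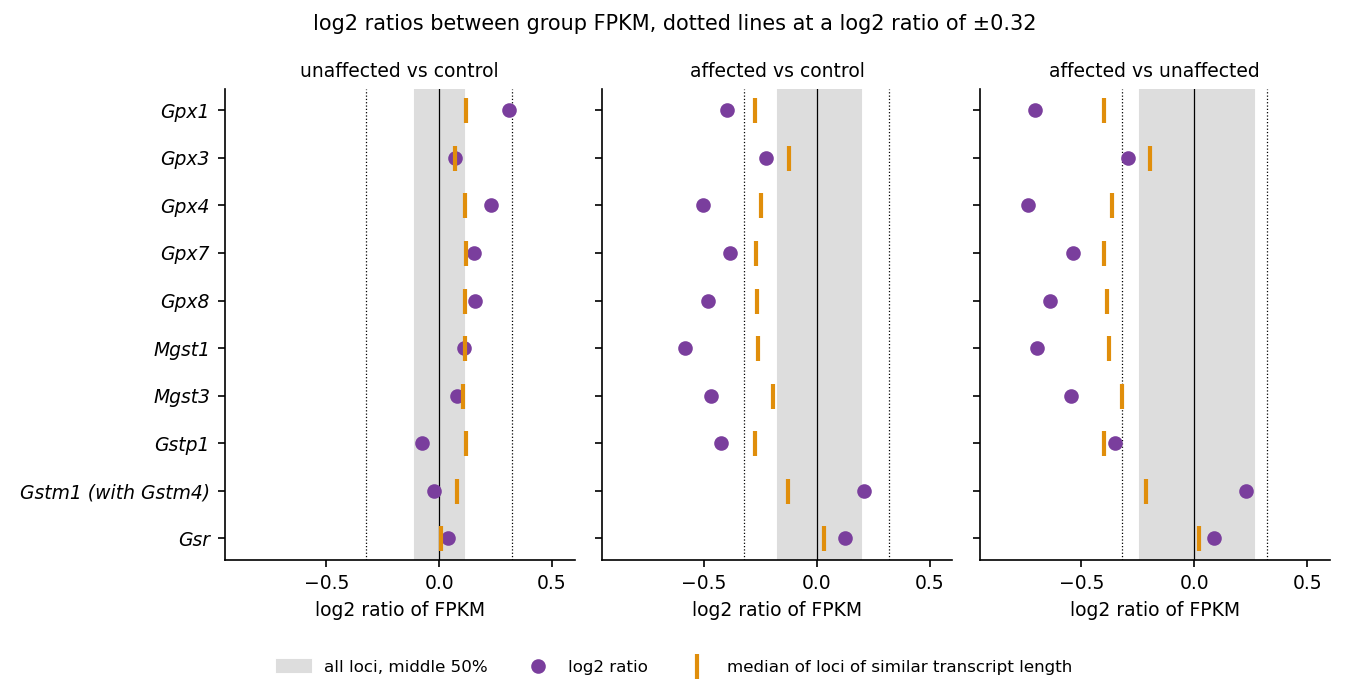
log2 ratios of group FPKM for the 10 genes in the 3 comparisons (purple points), with the middle 50% of all loci in grey, the fold limit of 0.32 dotted and, as orange bars, the median ratio of loci of similar transcript length. In affected against control, 7 points lie left of the dotted line, between -0.58 and -0.38, and the orange bars of those 7 genes lie at -0.27 to -0.19.

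Ratios in this table moved with transcript length over all loci, and the 10 genes are mostly short. Across 12556 loci with an annotated length, Spearman's rho between length and log2 ratio was 0.56 for affected against control and -0.49 for unaffected against control, and it was 0.62 for affected against unaffected. Loci share libraries and are not replicates, so these are descriptions. Among 2538 loci with transcripts under 1500 nt, the median log2 ratio of affected to control was -0.21 and 29.7% were lower past the fold limit. All 7 lower genes are in that class, with lengths of 787 to 1097 nt, whereas Gpx3 (1594 nt) and Gsr (2673 nt) are longer. The joined Gstm1 locus is in it too at 1462 nt, the length of whichever of Gstm1 and Gstm4 is longer.

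After the running median of loci of similar length was subtracted, 1 of the 10 genes was still lower than control past the fold limit, Mgst1 at a log2 ratio of -0.33. Mgst3 stood at -0.28, Gpx4 at -0.26, Gpx8 at -0.22 and Gpx1 at -0.13. The Gstm1 locus was then higher past the fold limit, at 0.33. Under the same subtraction 5.81% of all loci were lower and 4.28% higher, so 1 of 10 in each direction is near the background. All 8 genes with ratios below 0 remained below 0, where the median of all loci is 0 by construction. The 7 genes counted as lower had been picked by the same ratios, so this count is not a second observation. The median over the 10 genes was -0.14. Against the unaffected group, the same subtraction left Gpx4 lower (-0.37) and the Gstm1 locus higher (0.44) past the fold limit, and Gstp1 changed sign, to 0.052. There 8.97% of all loci were lower and 9.31% higher, again near 1 of 10 in each direction. The order unaffected above control above affected, shown by 7 of the 10 genes, was shown by 31.0% of all loci and by 67.0% of loci with short transcripts. What makes ratios follow length, such as RNA quality or library preparation, was not tested.

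**Figure D3:**
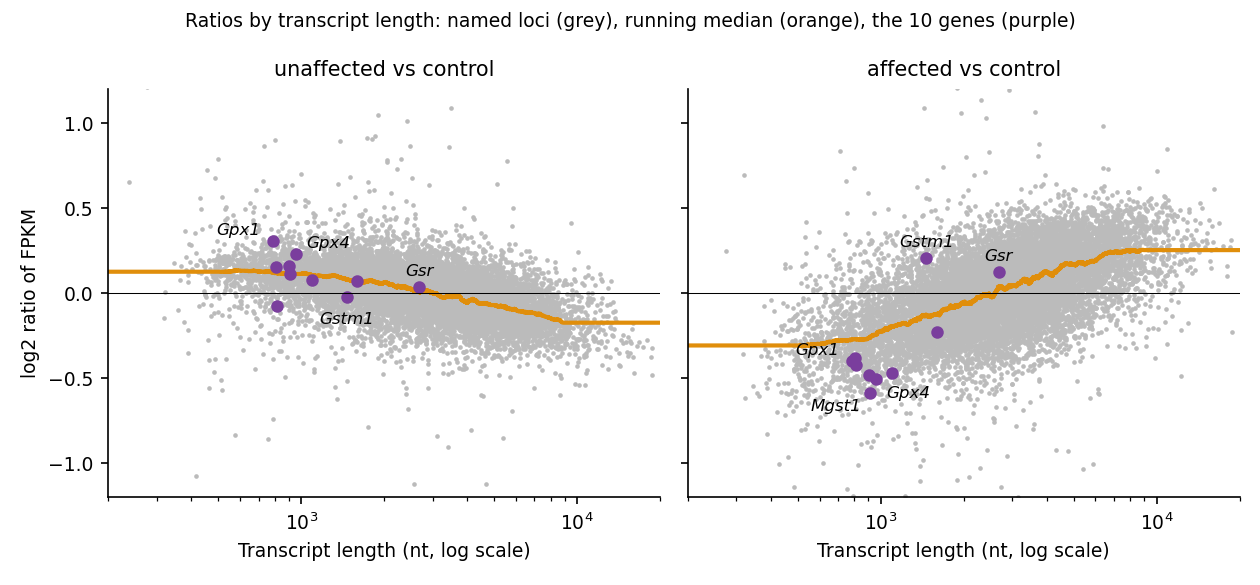
log2 ratio of FPKM against transcript length (log scale) for 12556 loci (grey), with the running median over loci ordered by length (orange) and the 10 genes (purple). Left of 1500 nt the orange line lies above 0 for unaffected against control and below 0 for affected against control. The 7 lower genes, which were picked by their ratio, sit below the line in the right panel. In the left panel 164 loci and in the right 176 lie beyond the axis.

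The same question was asked of the genes around these enzymes. Of the other glutathione transferases, 12 had a mean FPKM of at least 1, and in the affected group 2 were lower than control past the fold limit and 0 higher, where 11.3% of all loci were lower. The lower genes were Hpgds, the haematopoietic prostaglandin D synthase, at a log2 ratio of -0.64 from a control FPKM of 1.82 and with a transcript of 3476 nt, and the theta class transferase Gstt1 at -0.33, with 1071 nt. The median of the 12 was -0.21, or -0.04 less the length trend. The other peroxidases Gpx2, Gpx5 and Gpx6 were under an FPKM of 1 in mean and were not counted.

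Genes of glutathione synthesis and breakdown lay near the middle of all loci. Of 13, 1 was lower in the affected group and 0 higher, no more than the 11.3% of all loci, with a median log2 ratio of -0.03. Less the length trend the median was -0.07, and 1 of the 13 has a transcript under 1500 nt. The lower gene was Chac2, which encodes a glutathione-degrading enzyme, at -0.51, with 8.86 FPKM in controls and 6.18 in affected fetuses. The subunits of the rate-limiting synthesis enzyme had log2 ratios of -0.01 (Gclc) and 0.12 (Gclm). These 2 were named for their role after their values were seen.

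Selenoproteins outside the peroxidases and the factors that insert selenocysteine share the TGA decoding with Gpx1, Gpx3 and Gpx4. Of 14 other selenoprotein genes, 4 were lower than control past the fold limit in the affected group and 0 higher, with a median of -0.26, or -0.04 less the length trend. Of all loci 11.3% were lower. Sepp1, which encodes the secreted protein that carries selenium between tissues, was at 74.7 FPKM in controls, 78.7 in unaffected and 41.3 in affected fetuses, a log2 ratio of -0.85, and its transcript of 2049 nt is not in the short class. The others were Selk (-0.40), Vimp (-0.37) and Selm (-0.35), all of the endoplasmic reticulum, and of these Vimp and Selm have transcripts under 1500 nt while Selk, at 1678 nt, does not. Sepw1, the most abundant, was at 2088, 2433 and 1705 FPKM. Of 7 insertion factors 0 reached the fold limit against controls, and Pstk, the kinase that primes the selenocysteine tRNA, came just short of it. Against the unaffected group, 8 of the 14 selenoprotein genes, 5 of the 12 transferases and 2 of the 7 insertion factors, Pstk (-0.55) and Trnau1ap (-0.50), were lower in the affected group, where 18.1% of all loci were. Transcripts under 1500 nt, of which 50.9% were lower, made up 5 of those 8, 4 of those 5 and both insertion factors. In that comparison 1 of the 13 genes of synthesis and breakdown was lower and 2 were higher, where 20.3% of all loci were higher.

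**Figure D4:**
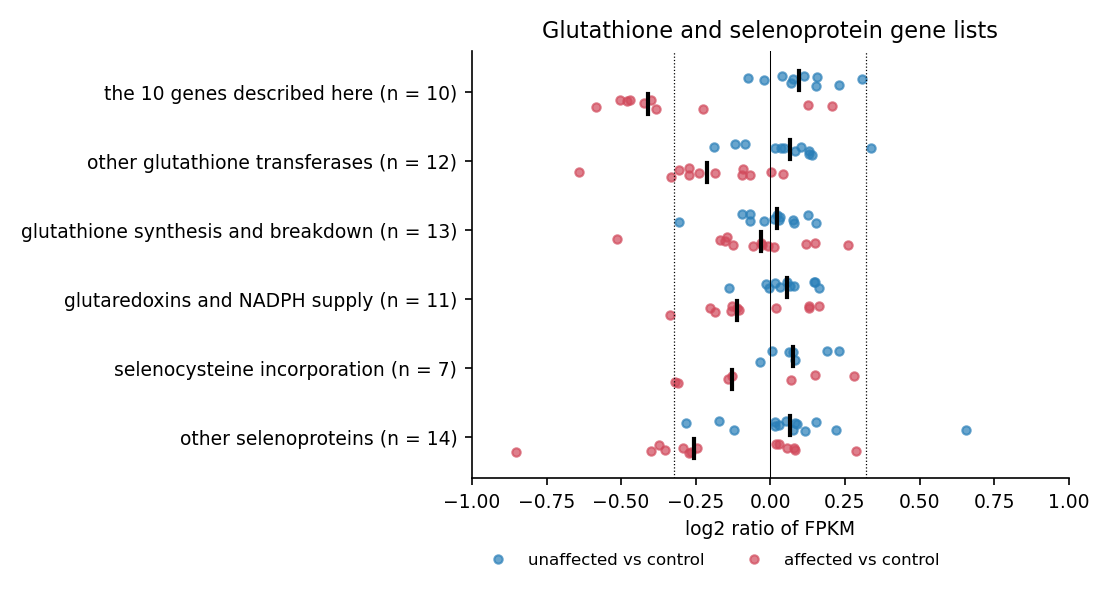
log2 ratios of FPKM for the 10 genes and 5 related gene lists, unaffected against control in blue and affected against control in red, 1 point per gene with a mean FPKM of at least 1, a black bar at each median and dotted lines at the fold limit. The red medians run from -0.41 for the 10 genes to -0.03 for glutathione synthesis and breakdown. Less the length trend, which is not drawn here, these medians were -0.14 and -0.07.

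Values of cell type markers were also set side by side between the groups, and no difference was tested. Projection neuron and progenitor markers, which belong to the labelled tissue, were detected in every group, among them Neurod6 and Emx1, and no marker in the table was listed at 0. The counts of markers in the affected group against controls stand beside 11.3% of all loci lower and 12.1% higher, and 29.7% of short loci lower. Projection neuron markers had a median log2 ratio of 0.34 in the affected group, with 5 of 8 higher, and their summed FPKM was 917 in controls, 811 in unaffected and 1069 in affected fetuses. Progenitor markers had a median of 0.25 with 3 of 8 higher, and summed to 440, 459 and 525. Astroglia and radial glia markers had a median of -0.23 with 4 of 8 lower, and summed to 2255, 2405 and 1562, most of it Fabp7, which at 842 nt is a short transcript. Erythroid markers summed to 5814, 7524 and 3651, the order of the peroxidases, and all 6 loci counted were higher in the unaffected group than in controls past the fold limit, where 5.45% of all loci were, whereas affected fetuses had 1 of the 6 lower and 1 higher than controls. These loci are not 6 separate genes, since 2 of them carry the same joined name of Hba-a1 and Hba-a2 and another joins several beta globin genes. Microglia markers had a median of -0.19 with 2 of 8 lower, and summed to 53.5, 56.4 and 45.8. Choroid plexus markers had a median of 0.18 with 1 of 6 higher, and summed to 1006, 1335 and 1120. Meningeal markers had a median of -0.04 with 1 of 8 lower, and summed to 175, 166 and 163. Endothelial markers had a median of 0.28 with 3 of 7 higher, while their sums of 71.1, 71.8 and 74.5 were carried largely by Cldn5. In affected against unaffected, where 18.1% of all loci were lower and 20.3% higher, all 6 erythroid loci were lower with a median of -0.69. There 7 of 8 projection neuron markers were higher with a median of 0.55, and 4 of 8 microglia markers were lower and 1 higher with a median of -0.32. Of the astroglia and radial glia markers 4 of 8 were lower and 1 higher there, and of the endothelial markers 1 of 7 was lower and 4 higher. Of loci with short transcripts 50.9% were lower in this comparison, a class that holds 4 of the 6 erythroid loci and all 4 lower microglia markers. Less the length trend the medians were -0.32 for erythroid, 0.49 for projection neuron and -0.09 for microglia markers. In bulk tissue fewer cells of a type and less RNA per cell cannot be told apart, and the part of these cells in the values of the 10 genes was not tested.

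The loci whose pair of ratios to control was nearest to that of Mgst1 were Uqcrh, Uqcr10 and 1500011K16Rik, among 6591 loci with a mean FPKM of at least 10. Uqcrh and Uqcr10 encode subunits of respiratory complex III. Uqcrh was at a log2 ratio of -0.58 in the affected and 0.11 in the unaffected group, against -0.58 and 0.11 for Mgst1. For Gstm1 the nearest loci were Usp22, Pnmal2 and Zfp384. Likeness here rests on 2 ratios only, and both moved with transcript length over all loci. Length was not taken into account in the search, and the order of groups seen for Mgst1 was shown by 67.0% of loci with short transcripts.

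The motif TGACNNNGC, the antioxidant response element core to which NRF2 binds in many glutathione genes, was searched on both strands from 250 bases before to 50 bases after the start of transcription. It was found in 12.4% of 32851 RefSeq promoters (GRCm38.p6) and in 1 of the 14 promoters listed for 9 of the 10 genes. That promoter is 1 of 2 listed for Mgst1, the other having 0 matches, and the match, in capitals and as the reverse complement, starts 56 bases before its start site, within chr6:138140463-138140487 on the plus strand.
Mgst1: ggggcttgGCACGGTCAggaggcgg
No match says only that these letters are not in this window.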

How the data were processed

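RNA was prepared from GD17 tissue, with RNeasy per the methods and Trizol per the labels, and sequenced as 50-bp pairs from TruSeq RNA libraries. Alignment is ascribed to STAR and also to Bowtie and TopHat in the methods, and the submitters' processing notes name Bowtie2 2.2.4.0, Cufflinks and Cuffdiff, on mm10. The deposited values are FPKM, which the authors computed as 1 value per group and locus. The deposited fold changes, p-values and q-values of the authors' comparisons were not used.

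Log2 ratios were computed with a pseudocount of 0.1 in Python 3.11.15 (pandas 2.3.3, numpy 2.4.6), after checks on simulated data. The 18 loci with a failed or too deep estimate and loci with a mean FPKM under 1 were left out. Transcript lengths are medians over GENCODE M21 basic transcripts, found for 80.8% of loci, and a joined locus takes the longest among its genes. The length trend is a running median over loci ordered by length. The fold limit is a log2 ratio of 0.32. The 10 genes and all lists were chosen with earlier results of these data known. Genes named from the glutathione and selenoprotein lists have the largest ratios of affected to control in their list, in either direction, except Sepw1, named for its level, and genes said to be named after their values were seen. Markers were named as defining their cell type. The planned limma fit was not possible, since no values of single animals were in the table. Alternatives were another pseudocount, filter, fold, centring, a length correction and leaving out joined loci.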

Additional observations from a re-analysis of the deposited data

How the results depend on the processing

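The counts and medians over the 10 genes moved by no more than 0.1 on the log2 scale, or 1.5 times for a count, with either other pseudocount, with centring or without joined loci, and a filter on low values cannot move them since all 10 genes pass it. With a ratio of at least 1.5, 0 genes were past the fold in affected against control, where 2.99% of all loci were lower, and 4, all lower, in affected against unaffected, where 4.92% were. With the trend on transcript length subtracted, 2 genes were past the fold in affected against control and 2 in affected against unaffected, 1 lower and 1 higher each time, and the medians were -0.14 and -0.18. There the log2 ratio of Gstp1 in affected against unaffected changed sign, to 0.052, and in unaffected against control Gpx3, Mgst1 and Mgst3 went from above 0 to between -0.03 and 0. Of the 30 single-gene ratios, 5 stayed within 0.1 under that subtraction, while all 30 did with either other pseudocount and with centring. The other settings cannot alter a single gene's ratio. No paired analysis was possible because the table holds no values of single animals, and for the same reason no animal could be left out. Depth per library is unknown.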

Other observations

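Glutaredoxins and the enzymes that supply NADPH to glutathione reductase were also read. All 11 genes read had enough signal to count, and 1 was lower in the affected group than in controls past the fold limit while 0 were higher, where 11.3% of all loci were lower and 12.1% higher. Their median log2 ratio was -0.11, or -0.008 less the length trend. The lower gene was Glrx3, a glutaredoxin that handles iron-sulphur clusters, at -0.33. Glrx5 was at -0.20 and Glrx at -0.19. In the unaffected group 0 of the 11 reached the fold limit against controls, where 6.77% of all loci were lower and 5.45% higher. In affected against unaffected 2 of the 11 were lower and 0 higher, where 18.1% of all loci were lower and 20.3% higher.

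Dio3, the deiodinase that inactivates thyroid hormone, was the selenoprotein gene with the highest ratio of unaffected to control, a log2 of 0.65 from 1.97 to 3.15 FPKM, while the affected group was at 2.01. It was chosen after its values were seen.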
